A study of Mus musculus with 12 samples.

Results

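The CCR4-NOT complex is the main cytoplasmic deadenylase, and the transcripts of its subunits and of the partner protein Tob1 were followed here across 12 Affymetrix MOE430 2.0 arrays of B220+ bone marrow cells. The members were Cnot1, Cnot2, Cnot3, Cnot4, Cnot6, Cnot6l, Cnot7, Cnot8, Cnot10 and Tob1, chosen by gene symbol in the platform annotation. Of these 10 genes, 9 had a probe set that named them alone, out of 18194 genes with such a probe set. The 2 probe sets that carry the symbol Cnot1 also carry Gm6158, so Cnot1 was not analysed here. Each gene was represented by its probe set of highest mean. All 9 represented members lay above a log2 intensity of 4 on at least 3 arrays, the filter that 10287 genes passed.

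The mice were littermates aged 4 to 6 weeks of a background that was 94% C57BL/6, with 3 arrays in each of 4 groups. They were wild type, carried the Eµ-TTP-1 transgene, were precancerous Eμ-Myc mice, or were precancerous Eμ-Myc;Eµ-TTP-1 mice, which carry both transgenes. These groups are called wild type, TTP, Myc and Myc TTP. The Eµ enhancer of the immunoglobulin heavy chain locus directs a transgene to B-lineage cells, and TTP (tristetraprolin, the product of Zfp36) binds AU-rich elements of mRNAs. Cells were taken with magnetic beads against B220 (CD45R), and how many animals gave 1 RNA sample is not given in the sources used here. The labels call the arrays of a group biological replicates. In such bulk samples, fewer cells of a type and less RNA per cell cannot be told apart.

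Shortening of the poly(A) tail starts the decay of most mRNAs, and CCR4-NOT carries out much of this step. Its large scaffold, CNOT1, holds a catalytic module, in which CNOT7 or CNOT8 (the CAF1 nucleases) bind CNOT6 or CNOT6L (the CCR4 nucleases). It also holds the CNOT2-CNOT3 module and the CNOT10-CNOT11 module, while CNOT4 is a ubiquitin ligase that is less tightly bound in mammals. RNA-binding proteins, TTP among them, recruit the complex to chosen mRNAs. Proteins of the BTG and TOB family, to which TOB1 belongs, bind the CAF1 nucleases and restrain proliferation in several cell types. In B-cell development CNOT3 is required for the passage through the early stages.

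Of the 12 arrays 2 went against their labels in Myc signal. The intensity of the Myc probe set was 8163 to 15451 on Myc and 3617 to 10551 on Myc TTP arrays. Among wild-type arrays it was 805, 819 and, on number 3, 6411. Among TTP arrays it was 1060, 1343 and, on number 3, 11360. The libraries labelled wild type 3 and TTP 3 thus go against their labels and are called the discordant pair. Xist and a Y-linked probe set were both above log2 4 on 4 arrays, and all 4 are numbered 3. Myc 1 had a Y-linked probe set but not Xist above log2 4, and every other array had Xist but no Y-linked probe set. The part of sex in the differences below was not tested. Of 11 B-lineage markers 10 had a probe set, and all 10 were above log2 4 on every array. Markers of other marrow cells were also present. The summed signal of 12 granulocyte markers, each above log2 4 on at least 1 array of every group, was log2 17.80 to 18.28 on wild-type, 17.46 to 18.46 on TTP, 13.18 to 17.71 on Myc and 16.70 to 17.29 on Myc TTP arrays. That of 7 erythroid markers was 14.11 to 14.42, 13.82 to 14.73, 13.64 to 14.06 and 13.81 to 14.14, and Hba-a1 was below log2 4 on every array. In the Myc comparison averaged over both TTP states, 24.6% of all genes fell and 18.7% rose at a limma adjusted p under 0.05. At this threshold 12 of 12 tested granulocyte, 9 of 10 B-lineage and 6 of 6 plasmacytoid dendritic markers fell. So did 5 of 5 monocyte and macrophage, 4 of 5 NK and 4 of 6 erythroid markers. Of 2 tested T-cell markers 1 fell and 1 rose. The summed B-lineage signal was 16.77 to 17.27 on wild-type, 16.43 to 17.19 on TTP, 16.05 to 16.63 on Myc and 16.25 to 16.39 on Myc TTP arrays. The part of these markers in the differences that follow the Myc label was not tested.

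From the lowest to the highest of the 12 arrays, the log2 intensity spanned 0.46 for Cnot8, 0.65 for Cnot2, 0.66 for Cnot3, 0.79 for Cnot6, 0.82 for Cnot10, 0.86 for Cnot6l and 0.87 for Cnot4. Tob1 spanned 1.24 and Cnot7 1.32, the widest of the 9. Group means differed by between 0.33 for Cnot3 and 0.61 for Tob1. For 7 of the 9 members, every group overlapped with its neighbour in the order of the means. The exceptions were Cnot3 and Cnot8, where Myc TTP and wild-type arrays lay above all TTP and Myc arrays. The mean was lowest in the Myc group for 6 members, namely Cnot2, Cnot3, Cnot4, Cnot6, Cnot6l and Cnot8.

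**Figure D1:**
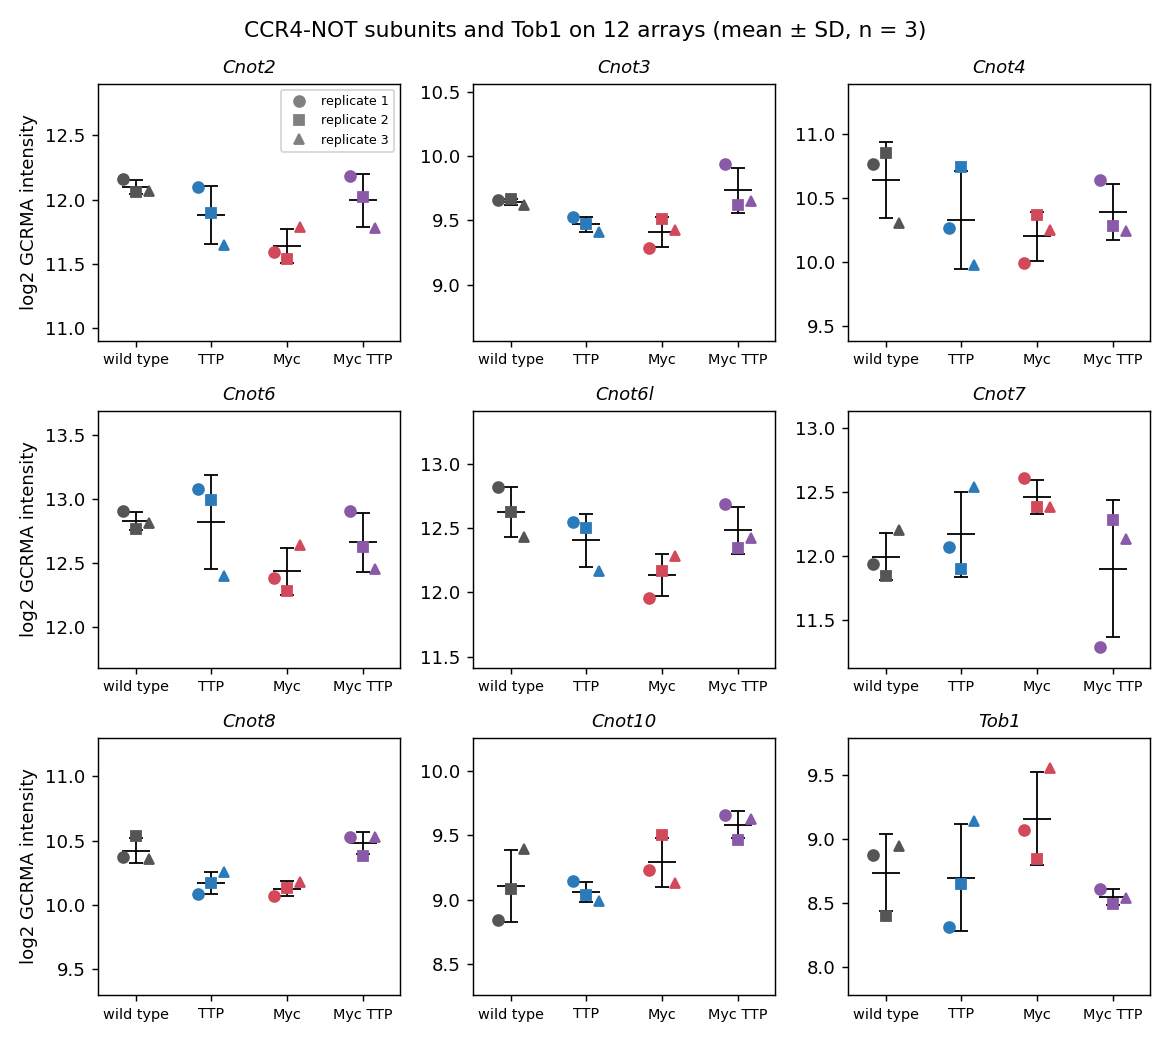
Log2 GCRMA intensity (y axis) of the 9 members in the 4 groups (x axis). Symbols are arrays, bars are the mean ± SD of 3 arrays, and every panel spans 2 log2 units. Cnot8 shows the narrowest span, 0.46, and Cnot7 the widest, 1.32, which rests on Myc TTP 1 at 11.29.

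The first comparison set the Myc arrays against the wild-type arrays. No member passed in Myc over wild type (0 of 9, limma, Benjamini-Hochberg adjusted p under 0.05 over all 10287 genes), where 11.0% of all genes passed. At an unadjusted p under 0.05 the members numbered 3, Cnot2, Cnot6l and Cnot8, against 41.0% of all genes. The median of the 9 differences was -0.29 on the log2 scale, and that of all tested genes was -0.21. Quantile normalization moved these medians to -0.09 and 0.04, and a common array median moved them to -0.03 and 0.05. The 11.0% of genes called became 0 under either scaling. Under each of the 3 scalings 3 members, Cnot7, Cnot10 and Tob1, lay above the median of all genes and 6 below it.

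Among the scaffold-binding pair, Cnot2 read log2 12.16, 12.06 and 12.07 on wild-type arrays, 12.10, 11.89 and 11.65 on TTP, 11.59, 11.53 and 11.79 on Myc, and 12.19, 12.02 and 11.78 on Myc TTP arrays. The 3 Myc arrays lay below the 3 wild-type arrays, by 0.46 ± 0.14 (difference ± SE, adjusted p = 0.0526). Cnot3 read 9.65, 9.66 and 9.62 on wild-type, 9.53, 9.47 and 9.41 on TTP, 9.28, 9.51 and 9.43 on Myc, and 9.94, 9.62 and 9.65 on Myc TTP arrays. Its Myc arrays also lay below all wild-type arrays, with a difference of -0.24 ± 0.13 (adjusted p = 0.169). Quantile normalization took this difference to 0.00, and a common median took it to 0.02.

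Of the CCR4-type nucleases, Cnot6l read 12.82, 12.63 and 12.43 on wild-type, 12.55, 12.50 and 12.17 on TTP, 11.96, 12.17 and 12.28 on Myc, and 12.69, 12.34 and 12.42 on Myc TTP arrays. Its difference in Myc over wild type was -0.49 ± 0.15 (adjusted p = 0.0524), with no overlap of the groups. Cnot6 read 12.90, 12.77 and 12.81 on wild-type, 13.07, 12.99 and 12.40 on TTP, 12.38, 12.28 and 12.64 on Myc, and 12.90, 12.62 and 12.45 on Myc TTP arrays. Its Myc arrays differed from wild-type arrays by -0.39 ± 0.18 (adjusted p = 0.126), again without overlap. For both genes the array labelled TTP 3 was the lowest of its group.

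The CAF1-type nucleases differed in direction in Myc over wild type at their probe sets of highest mean, but neither difference passed. Each gene also had a probe set of the opposite direction. Cnot8 read 10.38, 10.53 and 10.35 on wild-type, 10.09, 10.17 and 10.26 on TTP, 10.07, 10.13 and 10.18 on Myc, and 10.53, 10.38 and 10.53 on Myc TTP arrays. Its difference in Myc over wild type was -0.29 ± 0.11 (adjusted p = 0.0731). Cnot7 read 11.94, 11.85 and 12.20 on wild-type, 12.07, 11.90 and 12.54 on TTP, 12.61, 12.38 and 12.38 on Myc, and 11.29, 12.29 and 12.13 on Myc TTP arrays. It was the 1 member whose Myc arrays all lay above the wild-type arrays, by 0.46 ± 0.25 (adjusted p = 0.173). In all, 5 of the 9 members were lower and 1 higher in Myc without overlap of the groups, where 41.3% of all genes were lower and 3.49% higher in this way.

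The remaining subunits overlapped between Myc and wild-type arrays. Cnot4, the ubiquitin ligase, read 10.77, 10.85 and 10.30 on wild-type, 10.26, 10.74 and 9.98 on TTP, 9.99, 10.36 and 10.25 on Myc, and 10.64, 10.28 and 10.25 on Myc TTP arrays. Its difference in Myc over wild type was -0.44 ± 0.22 (adjusted p = 0.146). Cnot10 was 0.18 ± 0.16 higher (adjusted p = 0.405). Tob1 read 8.88, 8.40 and 8.94 on wild-type, 8.31, 8.65 and 9.14 on TTP, 9.07, 8.85 and 9.55 on Myc, and 8.61, 8.49 and 8.54 on Myc TTP arrays. It was 0.42 ± 0.25 higher in Myc than in wild type (adjusted p = 0.217), with Myc 3 the highest of all 12 arrays.

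The calls in this comparison depended on which arrays were included, and the cause was not tested. Without the discordant pair, left out after the data were seen, 5 members passed as lower, where 34.3% of all genes did so. They were Cnot6l, which fell by 0.59 (adjusted p = 0.00646), Cnot4, by 0.61 (0.0217), Cnot2, by 0.47 (0.0185), Cnot6, by 0.40 (0.0471), and Cnot8, by 0.33 (0.0363). Cnot3, Cnot7, Cnot10 and Tob1 did not pass. Without wild type 3 alone Cnot2 and Cnot6l passed, without Myc 3 alone the same 2 genes, and without TTP 3 alone Cnot2, Cnot6, Cnot6l and Cnot8. TTP arrays are outside this contrast, so leaving out TTP 3 alters only the spread that the 4 groups share. Leaving out any 1 of the other 9 arrays gave no call.

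The Myc comparison was then made among arrays with the TTP label. In Myc TTP over TTP no member passed (0 of 9, and 0% of all genes), and 2 members, Cnot8 and Cnot10, had an unadjusted p under 0.05 against 36.0% of all genes. The median was 0.08 over the members and 0.09 over all genes. In 3 members, Cnot3, Cnot8 and Cnot10, all Myc TTP arrays lay above all TTP arrays, as in 30.6% of all genes. Cnot10 was 0.53 ± 0.16 higher (adjusted p = 0.0654), Cnot8 0.31 ± 0.11 (0.0774) and Cnot3 0.27 ± 0.13 (0.151). Without the discordant pair, Cnot8 rose by 0.35 (adjusted p = 0.0310) and Cnot10 by 0.49 (0.0319), where 21.0% of all genes passed as higher. Without wild type 3 alone Cnot10 passed, and without TTP 3 alone Cnot8 passed.

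Averaged over both TTP states, the Myc comparison sets 6 arrays against 6, and Cnot10 passed as higher. This subunit forms a module with CNOT11 at the amino-terminal part of the scaffold. Cnot10 read 8.84, 9.08 and 9.40 on wild-type, 9.14, 9.04 and 8.99 on TTP, 9.23, 9.50 and 9.13 on Myc, and 9.66, 9.46 and 9.62 on Myc TTP arrays. The Myc TTP arrays lay above all others except Myc 2, and the other groups overlapped. The rise was 0.36 ± 0.12 on the log2 scale, a fold of 1.28 (limma adjusted p = 0.0321). It was called as 1 of 9 members, where 18.7% of all genes passed as higher, 24.6% as lower and 43.2% in all. At an unadjusted p under 0.05 it was likewise 1 of 9 against 53.9%. The median was 0.01 for members and -0.06 for all genes.

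The call of Cnot10 was close to the threshold. With the replicate number as a block the adjusted p was 0.0521. It lay between 0.0563 and 0.0818, with a difference of 0.29 to 0.38, when wild type 1, wild type 2, TTP 1, TTP 2, Myc 1, Myc 2, Myc TTP 1 or Myc TTP 3 was left out. Its second usable probe set gave -0.09 (adjusted p = 0.757 over all probe sets). Without the discordant pair, Cnot10 rose by 0.41 (adjusted p = 0.0101, 24.1% of all genes higher), and Cnot6, by 0.39 (0.00960), Cnot6l, by 0.32 (0.0154), and Cnot4 fell, where 37.0% of all genes were lower. With all arrays Cnot6 was at -0.28 ± 0.13 (adjusted p = 0.0986), Cnot6l at -0.21 ± 0.11 (0.127) and Cnot2 at -0.17 ± 0.10 (0.171). A Cnot2 probe set of lower mean was at -0.34 and passed as lower (limma adjusted p = 0.041 over all probe sets).

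**Figure D2:**
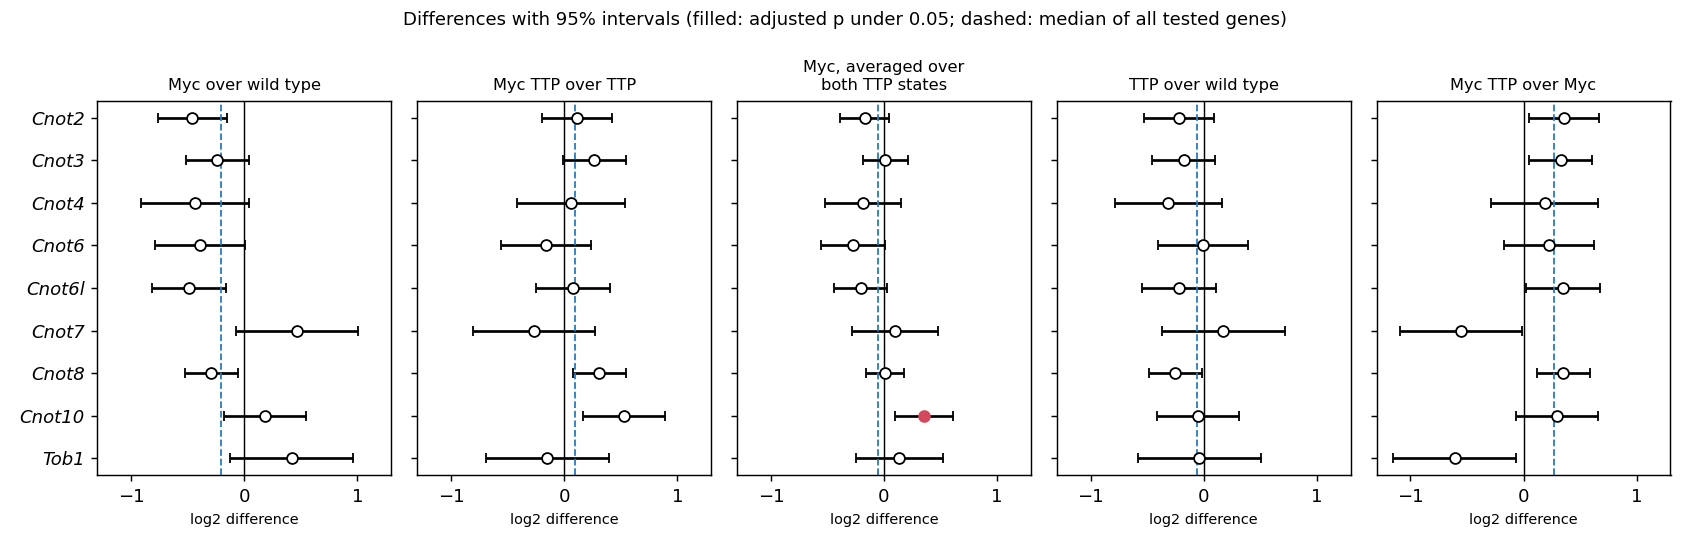
Log2 differences of the 9 members (rows) in 5 comparisons (panels), with 95% intervals from limma and dashed lines at the median of all 10287 tested genes. The single filled point is Cnot10, at 0.36 in the Myc comparison averaged over both TTP states.

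Cnot10 was the single member called with all arrays at its probe set of highest mean, and its upstream sequence is shown first. That of Cnot4 is second because Cnot4 alone among the members held the E-box that MYC and MAX bind. A promoter window of 250 bases before to 50 after the start was matched by symbol for 8 of the 10 members in the RefSeq table of build GRCm38.p6, giving 14 windows. Cnot1 and Cnot7 had no entry. Both strands were searched for CACGTG (its own reverse complement) and for the ETS-family core CCGGAAGT, whose letters cannot overlap those of the E-box. CACGTG was found in 1 of the 14 member windows and in 7.15% of 32851 windows. The ETS core was found in 1 member window, that of Cnot10, in 2 copies, while 3.89% of all windows held at least 1 copy and 0.356% held 2 or more. The Cnot10 stretch is chr9:114640201-114640310 on the minus strand, bases 110 to 1 before the start, with the ETS core in capitals on either strand. The Cnot4 stretch is chr6:35133888-35133947 on the minus strand, bases 210 to 151 before the start, with the E-box in capitals.
Cnot10: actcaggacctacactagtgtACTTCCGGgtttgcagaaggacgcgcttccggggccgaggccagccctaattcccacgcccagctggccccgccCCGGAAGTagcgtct
Cnot4: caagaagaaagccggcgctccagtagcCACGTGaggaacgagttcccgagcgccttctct
A match describes these letters and is not shown to be a bound site.

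The next comparison asked whether the TTP transgene, whose product recruits the complex, was accompanied by altered levels of its subunits. In TTP over wild type no member passed (0 of 9, and 0% of all genes), with 1 member, Cnot8, at an unadjusted p under 0.05 against 1.45% of all genes. Cnot8 was -0.25 ± 0.11 and Cnot3 -0.18 ± 0.13 (adjusted p = 1.00 for each). In these 2 members all TTP arrays lay below all wild-type arrays, as in 3.65% of all genes. The 9 differences ranged from -0.31 for Cnot4 to 0.17 for Cnot7, with a median of -0.18 against -0.06 for all genes. This fit was unpaired, though residuals of same-numbered wild-type and TTP arrays correlated at 0.498, 0.664 and 0.821. An unpaired fit can then miss differences. With the replicate number as a block, again no member passed. That block sets a shared shift per replicate number in all 4 groups. Residuals of same-numbered wild-type and Myc arrays correlated at -0.43, -0.28 and -0.63. Such a block therefore cannot account for a pairing of wild-type and TTP arrays alone.

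With Myc present the differences were above 0 for 7 of the 9 members. This comparison shares its Myc arrays with Myc over wild type, which in turn shares its wild-type arrays with TTP over wild type, so opposite signs among the 3 are not independent. In Myc TTP over Myc no member passed (0 of 9, and 0% of all genes), and 6 members had an unadjusted p under 0.05 against 19.1% of all genes. Cnot8 was 0.35 ± 0.11 higher (adjusted p = 0.178), Cnot2 0.36 ± 0.14 (0.223), Cnot6l 0.35 ± 0.15 (0.243), Cnot3 0.33 ± 0.13 (0.218), Cnot10 0.29 ± 0.16 (0.340), Cnot6 0.23 ± 0.18 (0.474) and Cnot4 0.19 ± 0.22 (0.608). Whole arrays shifted too. All genes had a median of 0.27, and 85.0% of them were above 0. With a common array median 5 members stayed positive, while Cnot4 was -0.08 and Cnot6 -0.04, and after quantile normalization 6 stayed positive and Cnot4 was -0.03. Without overlap of the groups, 3 members, Cnot3, Cnot6l and Cnot8, were higher, where 32.3% of all genes were.

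Tob1 and Cnot7 lay on the opposite side. Tob1 was -0.61 ± 0.25 in Myc TTP over Myc (adjusted p = 0.230), at 8.61, 8.49 and 8.54 against 9.07, 8.85 and 9.55. Only 1.44% of all tested genes had a lower difference than Tob1. Cnot7 was -0.56 ± 0.25 (adjusted p = 0.254), with 1.66% of genes below it. In both genes all Myc TTP arrays lay below all Myc arrays, as in 1.41% of all genes. The Cnot7 difference rests in part on Myc TTP 1, at 11.29, and was -0.25 without it. That of Tob1 was -0.41 without Myc 3. Without the 4 arrays numbered 3, also left out after the data were seen, Cnot2 rose by 0.54 (adjusted p = 0.0182) and Cnot6 by 0.43 (0.0413) in Myc TTP over Myc, where 14.1% of all genes rose.

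Averaged over both Myc states, the TTP comparison called no member and no gene (0% of 10287), with no member and 5.67% of all genes at an unadjusted p under 0.05. The members ranged from -0.32 for Tob1 to 0.12 for Cnot10. The interaction, the TTP difference with Myc minus that without it, was not called for any member (0 of 9, and 0% of all genes). At an unadjusted p under 0.05 it gave 4 members, Cnot2, Cnot3, Cnot6l and Cnot8, against 13.1% of all genes. It was largest in size for Cnot7, at -0.73 ± 0.35 (adjusted p = 0.389), followed by Cnot8 at 0.60 ± 0.15 (0.358), Cnot2 at 0.58 ± 0.20 (0.358), Tob1 at -0.57 ± 0.35 (0.452), Cnot6l at 0.57 ± 0.21 (0.359), Cnot3 at 0.51 ± 0.18 (0.358), Cnot4 at 0.50 ± 0.31 (0.450), Cnot10 at 0.34 ± 0.23 (0.485) and Cnot6 at 0.23 ± 0.26 (0.652). The median was 0.50 for the members and 0.34 for all genes. With a common median it was 0.18 and 0.01.

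The shift of whole arrays is visible when each gene is centred on its own mean over the 12 arrays. The median of the 9 members was highest on Myc TTP 1, at 0.25, where the median of all genes was 0.23. It was lowest on Myc 1, at -0.28 against -0.13 for all genes, and on TTP 3, at -0.24 against -0.19. On TTP 1 and TTP 2 the members lay at -0.06 and -0.09, while all genes lay at 0.06 and 0.09. On Myc TTP 2 and 3 the members were at 0.05 and 0.00, and all genes were at 0.06 and -0.02.

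**Figure D3:**
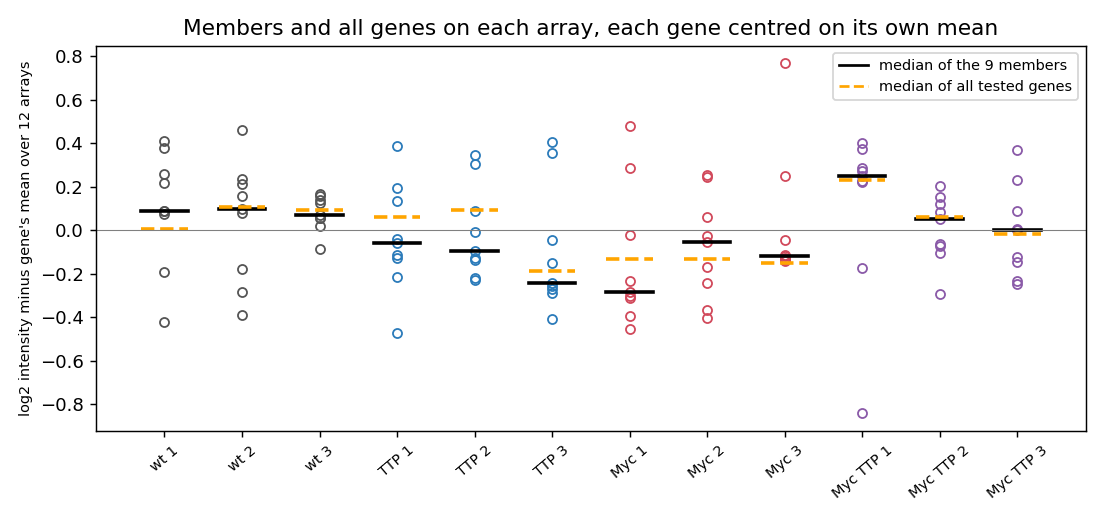
Log2 intensity of each member minus its own mean over 12 arrays (y axis) on each array (x axis, wt is wild type). Circles are the 9 members, solid bars their median and dashed bars the median of all tested genes. Both medians are highest on Myc TTP 1, at 0.25 and 0.23.

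Most members had several probe sets, and for some these disagreed. The 9 members had 32 probe sets, of which 27 were above log2 4 on at least 3 arrays and 5 were not. In Myc over wild type 21 of the 27 were lower and 6 higher. Every usable probe set was lower for Cnot2 (4 of 4), Cnot3 (2 of 2), Cnot4 (5 of 5) and Cnot6l (4 of 4), and 3 of 4 were lower for Cnot6. The direction split for Cnot8, at -0.29 and 0.64, for Cnot10, at 0.18 and -0.43, and for Cnot7, at 0.46, 0.72 and -0.24. In Myc TTP over Myc the Cnot7 probe sets gave -0.56, -0.05 and 0.39, and those of Cnot8 gave 0.35 and -0.45. Cnot2 had 3 usable probe sets higher and 1 lower there, at -0.13. Cnot4 had 3 higher and 2 lower, at -0.06 and -0.01. Statements on Cnot7, Cnot8 and Cnot10 therefore hold for the named probe set. So do those on Cnot2 and Cnot4 in Myc TTP over Myc. The brightest Cnot7 and Cnot2 probe sets carry the suffixes _s_at and _x_at, which mark probes that may also bind related transcripts. Tob1 rests on 1 usable probe set.

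**Figure D4:**
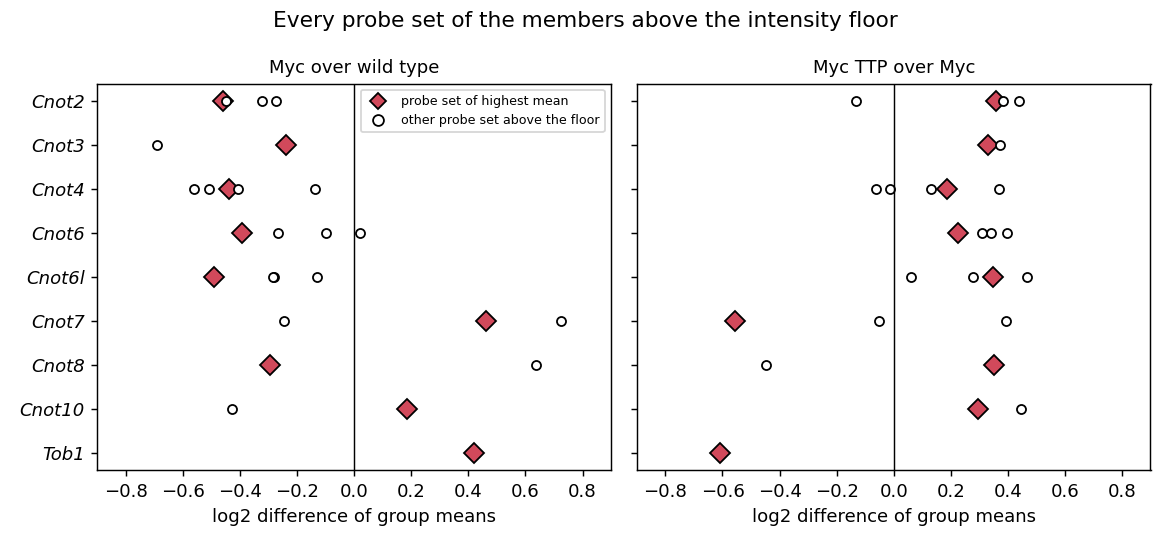
Log2 difference of group means (x axis) for each of the 27 usable probe sets of the 9 members (rows), in Myc over wild type and Myc TTP over Myc. Diamonds are the probe sets of highest mean, and circles are the others. Cnot7, Cnot8 and Cnot10 have probe sets on both sides of 0 in the left panel.

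Among the other subunits and partners of the complex, calls were made in both directions. In the averaged Myc comparison, 2 of 5 other subunits and BTG/TOB genes rose, 2 fell and 1 did not pass. Among all genes 18.7% rose and 24.6% fell in this comparison, 43.2% in all. Cnot9, which encodes a subunit that binds partner proteins, rose by 0.46 ± 0.12 (adjusted p = 0.0169), and Cnot11, the partner of Cnot10, by 0.31 ± 0.09 (0.0239). Btg1, an antiproliferative CAF1-binding protein, read 14.26, 14.15 and 13.73 on wild-type, 14.01, 13.97 and 13.15 on TTP, 12.07, 11.997 and 13.46 on Myc, and 12.57, 12.39 and 12.37 on Myc TTP arrays. It fell by 1.40 ± 0.25 (adjusted p = 0.0169), and its relative Btg2 fell by 0.65 ± 0.15 (0.0169). Both also fell in Myc over wild type, where Btg1 was at -1.54 ± 0.36 and Btg2 at -1.08 ± 0.21 (adjusted p = 0.0479 each, 10.6% of all genes lower). Neither passed in Myc over wild type with the replicate block (adjusted p = 0.0637 each), after quantile normalization (0.0623), with a common median (0.0631), or without any 1 of wild type 1, wild type 2, TTP 1, Myc 1, Myc 2 and the 3 Myc TTP arrays. Only 1 of these genes rose when wild type 1, wild type 2, TTP 1, Myc 1 or Myc 2 was left out.

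Of 8 other deadenylases 4 rose and 1 fell in the averaged Myc comparison, where 18.7% of all genes rose and 24.6% fell. Noct, the deadenylase-like protein nocturnin, rose by 0.53 ± 0.12 (adjusted p = 0.0169), the poly(A)-specific ribonuclease Parn by 0.49 ± 0.14 (0.0228), Toe1 by 0.44 ± 0.13 (0.0246) and the mitochondrial Pde12 by 0.37 ± 0.12 (0.0282). Angel2 fell by 0.41 ± 0.13 (0.0290). The count of rises was 1 without wild type 1, wild type 2, TTP 1 or Myc 2, and 2 without TTP 2, Myc 1 or Myc TTP 2. That of falls was 3 without TTP 3, 2 without wild type 3, and 0 without any 1 array but these, Myc 3 and Myc TTP 1.

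Of 16 genes of decapping and 5'-to-3' decay 7 rose and 1 fell in the averaged Myc comparison, where 18.7% of all genes rose and 24.6% fell. Both directions together, 8 of 16 were called, near the 43.2% of all genes. The rises included some subunits of the LSM ring, which binds deadenylated ends. Among them were Lsm4 at 0.64 ± 0.16 (limma adjusted p = 0.0171), Lsm6 at 0.61 ± 0.13 (0.0169) and Lsm3 at 0.50 ± 0.11 (0.0169). Lsm1, of the same ring, did not pass, at 0.07 ± 0.18 (0.777), and was named after its values were seen. The scavenger enzyme Dcps rose by 0.59 ± 0.14 (0.0169) and the decapping enzyme Dcp2 by 0.28 ± 0.10 (0.0432). The helicase Ddx6, which links CCR4-NOT to decapping, fell by 0.48 ± 0.15 (0.0272). It was named after its values were seen. With the replicate block 5 genes rose, and Dcp2 did not pass (adjusted p = 0.0662). The rises numbered 4 without wild type 1, wild type 2, TTP 1, TTP 2 or Myc 2. Ddx6 did not pass without any 1 of these, Myc 1, Myc TTP 2 or Myc TTP 3. Of 9 poly(A)-binding proteins and partners 4 rose and 0 fell, where 18.7% of all genes rose and 24.6% fell. Their share called in either direction was again near the 43.2% of all genes. The genes that rose were Larp1, by 0.90 ± 0.22 (0.0169), Pabpc4, by 0.54 ± 0.15 (0.0187), Larp4, by 0.39 ± 0.14 (0.0474), and Paip2b, by 0.26 ± 0.10 (0.0474). Their rises numbered 1 without TTP 1, 2 without wild type 1, wild type 2, Myc 1, Myc 2, Myc TTP 1 or Myc TTP 2, and 2 with the replicate block.

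RNA-binding proteins and miRNA-pathway proteins bring the complex to its targets. Of 13 tested adaptors 0 rose and 7 fell, where 18.7% of all genes rose and 24.6% fell, and the median was -0.37 against -0.06 for all genes. Zfp36l1 fell by 0.91 ± 0.21 (adjusted p = 0.0169), Zfp36, by 1.00 ± 0.28 (0.0195), and Zfp36l2, by 0.82 ± 0.23 (0.0205). Zfp36 itself read 10.70, 9.80 and 9.84 on wild-type, 9.88, 9.89 and 9.78 on TTP, 9.28, 9.34 and 9.997 on Myc, and 7.47, 8.62 and 9.18 on Myc TTP arrays, so this probe set was not higher on arrays with the TTP label. Whether it reads the transcript of the transgene is not given in the sources used here, so the values do not measure transgene expression. Of the miRNA pathway adaptors, Tnrc6c fell by 0.51 ± 0.18 (0.0414) and Ago1 by 0.43 ± 0.13 (0.0263). In Myc over wild type no adaptor passed, where 11.0% of all genes did, and 10 of 13 had an unadjusted p under 0.05, against 41.0% of all genes. The count of 7 was 1 without wild type 1 or Myc 1, 2 without wild type 2 or TTP 2, 3 without TTP 1, Myc 2, Myc TTP 2 or Myc TTP 3, and 11 without TTP 3. It was 7 with a common median and 8 after quantile normalization. The summed granulocyte signal was 13.18, 14.54 and 17.71 on Myc 1, 2 and 3, the last within the range of TTP arrays, and its part in these falls was not tested.

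**Figure D5:**
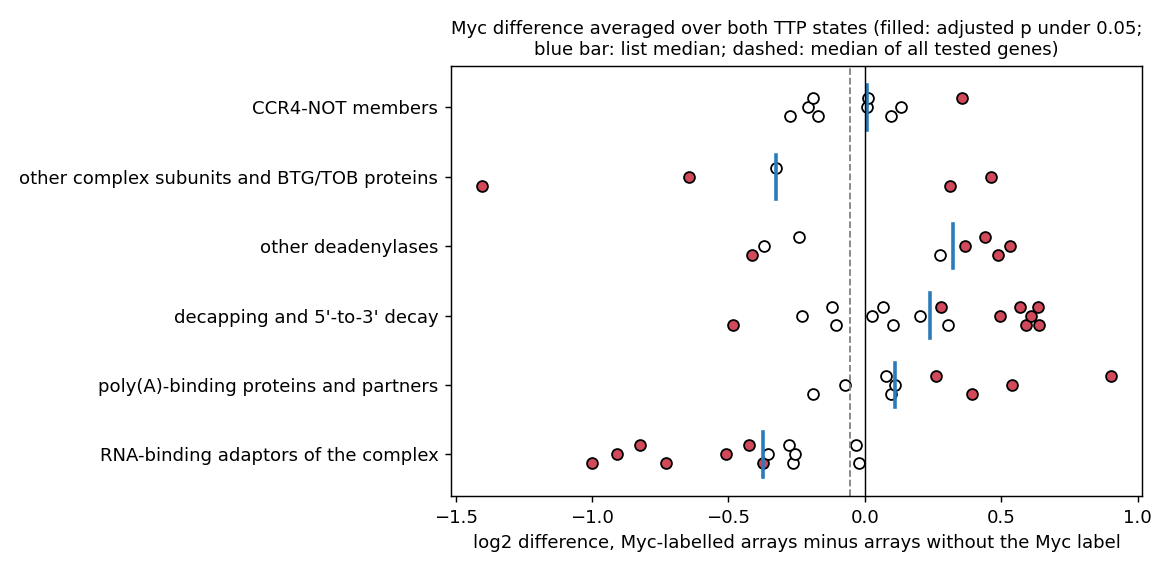
Log2 difference of Myc-labelled minus other arrays, averaged over both TTP states (x axis), for the 9 members and 5 lists of related genes (rows). Filled circles passed at an adjusted p under 0.05, blue bars are list medians and the dashed line is the median of all genes, -0.06. The members lie between -0.28 and 0.36, while the adaptors have a median of -0.37.

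The genes whose profile lay closest to Cnot10 over the 12 arrays were Sf3b5, a splicing factor subunit, Eif2b2, a translation initiation factor subunit, and Tmem160. Their root mean square distance from Cnot10, with each gene centred on its own mean, was 0.07, 0.07 and 0.08 log2 units. The SD of Cnot10 over the same arrays was 0.27.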

How the data were processed

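The deposited values are GCRMA summaries per probe set, per the submitters' processing notes, with no version given. The values show that the authors deposited intensity on a linear scale. GCRMA is meant to normalize between arrays, but the deposited arrays still differed in level. Their median intensity over all probe sets ran from 10.94 on Myc 2 to 13.91 on Myc TTP 1. A change in total RNA per cell cannot be seen in such values. Log2 was taken with no pseudocount. Of 45101 probe sets, 34958 carried 1 gene symbol, 932 several and 9211 none. Symbols were updated through Entrez identifiers, found for 34754 probe sets in the RefSeq table of GRCm38.p6. The probe set of highest mean stood for a gene, and 10287 of 18194 genes above log2 4 on at least 3 of 12 arrays were tested.

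Tests were two-sided with limma 3.58.1 in R 4.3.3 (lmFit, eBayes with trend) on all 12 arrays, with 4 group means, 8 residual degrees of freedom and Benjamini-Hochberg adjustment over all tested genes. The script was tested on simulated data. Precision is limited by the 3 arrays of a group. The members, lists and tests were chosen with earlier results of these data known. From each list the text names the 3 genes of smallest p in the averaged Myc comparison and called genes up to 5. For likeness it names the 3 nearest profiles of called members. Residuals of same-numbered wild-type and TTP arrays correlated at 0.498, 0.664 and 0.821, which the labels do not explain, and no other pair of groups had all 3 above 0.1. Between Myc and wild-type arrays, and between Myc and TTP arrays, all 3 were negative.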

Additional observations from a re-analysis of the deposited data

Results flagged for a closer look

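Cnot3 and Cnot8 stood out because all arrays of a group moved one way in one background and the opposite way in the other. For both genes, all TTP arrays lay below all wild-type arrays, as in 3.65% of all genes. All Myc TTP arrays lay above all Myc arrays, as in 32.3% of all genes. Equally, all Myc arrays lay below all wild-type arrays (41.3% of all genes), and all Myc TTP arrays lay above all TTP arrays (30.6%). These comparisons share their arrays, so they are not independent. The share of all genes with the whole pattern was not counted. The difference itself was tested as the interaction in limma, which uses the same arrays that set the flag. It was 0.51 ± 0.18 for Cnot3 and 0.60 ± 0.15 for Cnot8 in log2 units, and neither passed (adjusted p = 0.358 each). The median interaction of all genes was 0.34. The second usable probe set of Cnot8 gave an interaction of -0.33.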

How the results depend on the processing

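Over 25 other settings, 842 of the values of the 36 member differences given above kept their direction and their side of the threshold, 34 came past it, 10 fell short of it and 14 turned sign. No member passed in Myc over wild type with all arrays, but 1 did with a floor of log2 6, 5 did without the pair of arrays with a discordant Myc signal (wild type 3 and TTP 3) and 5 did without the 4 arrays numbered 3, and leaving out 1 array gave 0 to 4. In Myc TTP over TTP the counts were 2 and 1 in these array sets and 0 to 1 with 1 array left out. In the averaged Myc comparison the count of 1 became 2 with all probe sets kept separately, where Cnot10 was higher and a Cnot2 probe set lower. That count was 0 at an adjusted p under 0.01, 0 with the replicate block, 4 in each of these array sets, and 0 to 3 with 1 array left out. In Myc TTP over Myc it became 2 without the 4 arrays numbered 3. The replicate block changed no other count of members. Both array sets were chosen after seeing the data. The cause of these changes was not tested.

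With the probe set of largest SD, Myc over wild type was 0.64 for Cnot8 and -0.43 for Cnot10, and the averaged Myc comparison was -0.090 for Cnot10. Myc TTP over Myc was -0.13 for Cnot2, -0.014 for Cnot4 and -0.45 for Cnot8, and the interaction was -0.14 for Cnot2 and -0.33 for Cnot8. Quantile normalization gave 0.0031 for Cnot3 in Myc over wild type and -0.031 for Cnot4 in Myc TTP over Myc. A common median gave 0.020 for Cnot3 in the former, -0.077 for Cnot4 and -0.039 for Cnot6 in the latter, and -0.090 for the interaction of Cnot6.

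The 1135 genes called in Myc over wild type became 0 with either scaling, no filter, no intensity trend, the probe sets that varied most, no moderation, an adjusted p under 0.01 or the replicate block, 2 with all probe sets, and 4965 and 5626 in the added array sets. The 4449 genes of the averaged comparison became 0 at an adjusted p under 0.01 and 7149 with all probe sets. With 1 array left out these counts ran from 0 to 3609 and from 2151 to 5806. Without moderation no member passed except 1 in the averaged comparison.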
